A study of Homo sapiens with 6 samples.

Results

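The genes that encode the subunits of integrins and laminins were examined in RNA-seq of PC3 cells, a human prostate adenocarcinoma line that was derived from a metastasis in bone. Members were taken by symbol: the integrin alpha and beta subunit genes (ITGA and ITGB) and the laminin alpha, beta and gamma chain genes (LAMA, LAMB and LAMC). This gave 38 genes of 24462 symbols in the files, 26 of them integrin genes (18 alpha, 8 beta) and 12 laminin genes (5 alpha, 4 beta, 3 gamma). The study asked how CITED2, a transcriptional co-regulator that binds the acetyltransferases p300 and CBP, acts on prostate cancer cells. It transfected PC3 cells for 72 h at 80 nM either with a non-targeting siRNA (si-Control, 3 libraries) or with siRNA against CITED2 (si-CITED2, 3 libraries). Both groups were otherwise the same line in the same medium, and the study's methods list a single sequence against CITED2 and a single control sequence.

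CITED2 mRNA went against the label. Its normalized counts were 859, 892 and 773 in the si-Control libraries and 1084, 921 and 984 in the libraries labelled si-CITED2. The groups did not overlap, and the level was higher in the latter by a log2 fold change of 0.24 ± 0.07 (SE, n = 3 per group, edgeR quasi-likelihood adjusted p = 0.0363). That call was lost in 5 of 12 alternative settings. The group is therefore called the libraries labelled si-CITED2 throughout, and every direction below is that of the labels. The study checked the knockdown at the protein level, by immunoblot, which the count files do not hold. Why the mRNA went against the labels was not tested, and were the groups exchanged, every direction below would turn. Normalized counts are the reads of a gene scaled to a common library size after TMM normalization, a scaling that keeps most genes level between libraries.

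Integrins are receptors made of 1 alpha and 1 beta subunit that span the plasma membrane and tie the extracellular matrix to the actin cytoskeleton or, for alpha6beta4, to keratin filaments. Laminins are trimers of 1 alpha, 1 beta and 1 gamma chain that form the basement membrane under an epithelium, and several integrins bind them. In the prostate gland, basal cells make laminin-332 (a trimer that holds the chains of LAMA3 and LAMB3) and alpha6beta4, and both are commonly reduced in carcinoma.

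The libraries held between 19508925 and 28936374 counts, so that 3 counts, the smallest level taken as detectable, were 0.104 to 0.154 CPM. Such a floor covers counting error only. Keratins and epithelial adhesion genes (KRT8, KRT18, KRT19, EPCAM and CDH1) summed to 42347 to 45108 normalized counts in si-Control and 45903 to 50152 in the libraries labelled si-CITED2. The sum was carried by the keratins and the list was split: KRT8 and KRT18 were higher (log2 fold changes 0.24 and 0.18, edgeR adjusted p = 2.60e-03 and 0.0267), while EPCAM and CDH1 were lower (-0.33 and -0.52, adjusted p = 1.10e-03 and 1.67e-05). KLK3, low or absent in PC3, was near 0. Of 10 leukocyte markers, 9 stayed at or below 50 normalized counts in every library, with PTPRC at a mean of 1.52 and 0 and only CD68 abundant, and the platelet genes GP9 and PPBP were at 0 in all 6. The erythroid list summed to 3.53 to 9.66 normalized counts in si-Control and 116 to 142 in the libraries labelled si-CITED2, carried by HBA1 (means 1.49 and 48.8), HBA2 (1.20 and 54.3) and HBB (0 and 25.6), while its defining marker ALAS2 had means of 0 and 1.04. The endothelial list summed to 38.8 to 40.0 against 48.7 to 58.1, where ESAM was higher (means 22.9 and 40.9, edgeR adjusted p = 0.0314) and CDH5, too low to be tested, had means of 6.06 and 1.13. The fibroblast list summed to 128 to 132 against 143 to 173. That sum was carried by COL1A1 (means 122 and 153), whose groups did not overlap but which did not pass (log2 fold change 0.32, edgeR adjusted p = 0.105). DCN and LUM had means of at most 0.784. The part of these lists in the results was not tested. In bulk RNA, fewer cells of a kind and less RNA per cell cannot be told apart.

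Together the 38 genes took 0.470%, 0.510% and 0.514% of the counts in the si-Control libraries and 0.715%, 0.730% and 0.711% in the libraries labelled si-CITED2. Of the 30 members with enough counts to be tested, 14 were higher in the libraries labelled si-CITED2, 3 were lower and 13 did not pass an edgeR adjusted p of 0.05. Over all 16314 genes tested, 9.36% were higher and 8.09% were lower, 17.4% in either direction, so that the share of members that were lower was near the background. The median log2 fold change was 0.18 over the tested members and -0.001 over all genes tested. The integrins differed in 1 direction: 9 of 19 tested were higher and none was lower, while 10 did not pass. The laminins went both ways, with 5 of 11 tested higher, 3 lower and 3 not passing. LAMB4 is among the higher genes although it passed the filter on low counts only through the libraries labelled si-CITED2, so its call is no support for the count.

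**Figure D1:**
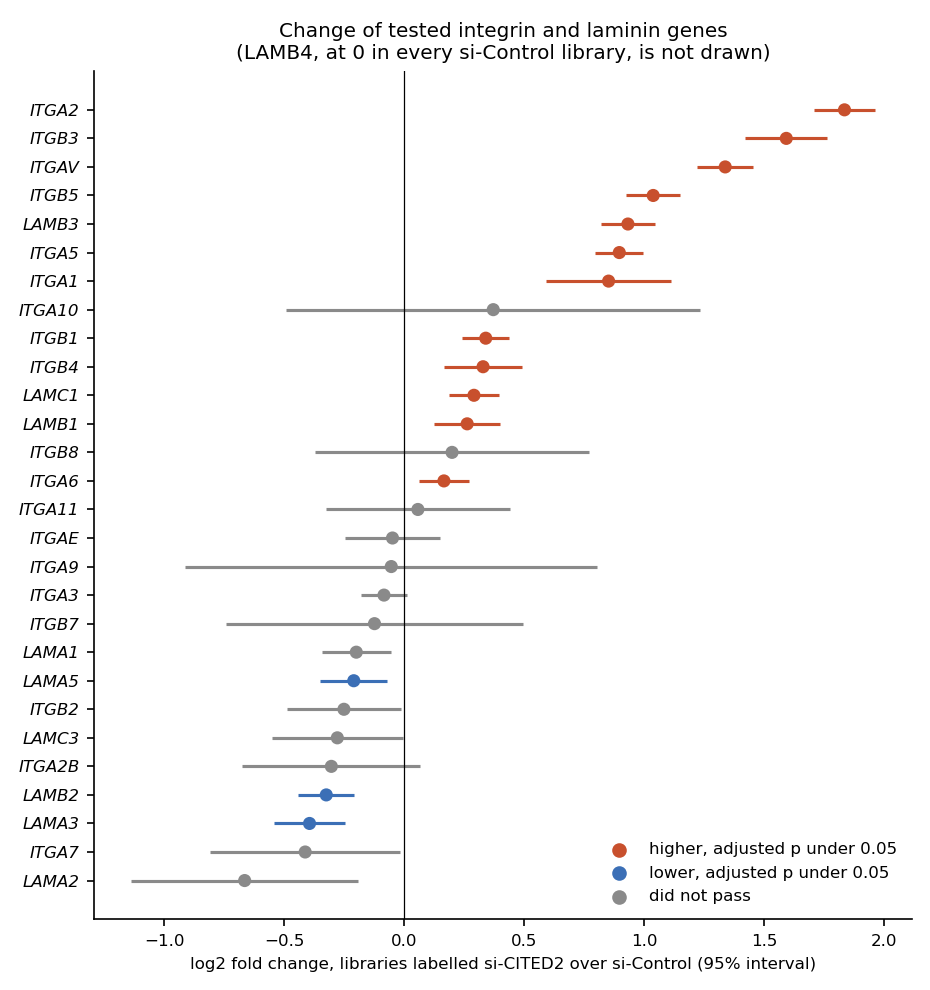
Log2 fold change (x axis, libraries labelled si-CITED2 over si-Control, 3 libraries each) of tested integrin and laminin genes with 95% intervals; red marks genes that were higher, blue lower and grey those that did not pass an adjusted p of 0.05. ITGA2 stands at the top at 1.84 and LAMA2, which did not pass, at the bottom at -0.67; LAMB4, with no count in si-Control, is not drawn.

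LAMB3 and LAMA3, whose chains meet in laminin-332, are described first. LAMB3 (chr1:209614870-209652466, GRCh38, minus strand), which encodes the beta3 chain, had 9435, 10070 and 10527 normalized counts in si-Control and 19974, 18979 and 18364 in the libraries labelled si-CITED2. All 3 of the latter were higher, by a log2 fold change of 0.93 ± 0.05 (SE, edgeR adjusted p = 1.50e-09). LAMA3 (chr18:23689443-23956222, plus strand), the alpha3 chain gene, went the other way. It had 1909, 2319 and 2269 normalized counts in si-Control and 1728, 1657 and 1555 in the libraries labelled si-CITED2. The groups did not overlap, although the lowest si-Control library came close to the highest of the others, and the log2 fold change was -0.40 ± 0.07 (SE, edgeR adjusted p = 7.57e-04).

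Sequence upstream of the start was compared for LAMA3 and LAMB3 because their chains, built into 1 protein, differed in direction. RefSeq promoter windows (GRCh38.p14, the 250 bases before an annotated start) were found for 26 of the 38 members, 33 windows in all, and searched on both strands for an AP-1 core (TGANTCA), a GC box (GGGCGG) and the SMAD element CAGAC; the motifs share no letters where they match below. The AP-1 core was present in 2 of 33 member windows, a share near the 6.6% of 35116 windows of all genes. These were the LAMA3 window and 1 of the 3 LAMB3 windows. The GC box was in 17 of 33 (42.6% of all windows) and CAGAC in 13 of 33 (38.0%). The LAMA3 window lies at a start inside the gene. It also held 1 GC box and 2 CAGAC elements, which lie outside the bases shown. Its AP-1 sites begin 125 and 69 bases before that start (10 bases on either side are shown, the AP-1 core in capitals).
LAMA3 site 1, chr18:23872885-23872911, plus strand: tggcacaggcTGACTCAtgtgtgaagt
LAMA3 site 2, chr18:23872941-23872967, plus strand: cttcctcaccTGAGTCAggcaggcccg
In the 1 LAMB3 window with a core, also at a start inside the gene, it begins 67 bases before the start and a GC box follows it (capitals mark both).
LAMB3 window with the core, chr1:209651375-209651624, minus strand: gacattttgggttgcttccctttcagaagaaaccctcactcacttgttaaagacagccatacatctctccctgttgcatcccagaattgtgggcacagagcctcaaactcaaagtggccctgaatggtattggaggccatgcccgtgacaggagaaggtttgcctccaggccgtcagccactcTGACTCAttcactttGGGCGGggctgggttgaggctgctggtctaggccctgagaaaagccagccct
The other LAMB3 windows held no core. As given above, LAMB3 was higher and LAMA3 lower in the libraries labelled si-CITED2. A match is a description of letters and was not tested as a binding site.

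LAMA3 and LAMB3 were then set beside each other per transcript length (CPM per kb of the longest GENCODE 29 basic coding transcript, 10661 bases for LAMA3, which also has shorter transcripts). In si-Control LAMB3 was at 98.7 ± 5.41 CPM per kb (SD, n = 3) and LAMA3 at 8.62 ± 0.89. In the libraries labelled si-CITED2 LAMB3 was at 188 ± 8.01 CPM per kb and LAMA3 at 6.56 ± 0.35. The ratio of LAMB3 to LAMA3 was 11.5 ± 0.74 (SD) in si-Control and 28.8 ± 0.46 in the libraries labelled si-CITED2. Since LAMB3 was higher and LAMA3 lower in every library labelled si-CITED2, the ratio had to separate the groups completely. Its exact two-sided permutation p = 0.1, the smallest that 3 against 3 libraries allow, therefore adds no support.

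LAMC1, the gamma1 chain gene shared by most laminins, was higher as well. It had 10149, 11002 and 11234 normalized counts in si-Control and 13113, 13348 and 13141 in the libraries labelled si-CITED2, without overlap (log2 fold change 0.29 ± 0.05, SE, edgeR adjusted p = 4.55e-04). LAMC3, the gamma3 chain gene, was at 160 to 249 normalized counts over the 6 libraries and did not pass (log2 fold change -0.28, 95% interval -0.55 to -0.01, edgeR adjusted p = 0.163).

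Among the other beta chains, LAMB1 and LAMB2 moved in opposite directions. LAMB1 encodes the beta1 chain, the partner of gamma1 in laminin-111 and laminin-511. It had 1219, 1330 and 1397 normalized counts in si-Control and 1463, 1653 and 1605 in the libraries labelled si-CITED2, a narrow gap with no overlap (log2 fold change 0.26 ± 0.07, SE, edgeR adjusted p = 0.0101). Without si-CITED2 replicate 2 the value was 0.22 and the adjusted p = 0.0712. LAMB2, the beta2 chain gene, had 1890, 1859 and 1984 against 1565, 1540 and 1467 normalized counts. All 3 libraries labelled si-CITED2 were lower, by a log2 fold change of -0.33 ± 0.05 (SE, edgeR adjusted p = 4.50e-04). LAMB3 made up 80.5% ± 0.32 (SD) of beta chain mRNA per kb in si-Control and 89.1% ± 0.55 in the libraries labelled si-CITED2, and LAMB2 11.7% ± 0.45 and 5.39% ± 0.07.

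LAMB4, a beta chain gene that neighbours LAMB1 on chromosome 7, was at 0 in every si-Control library, while the libraries labelled si-CITED2 held 14, 11 and 12 counts. Against a floor of 3 counts over the si-Control group the level was at least 14.3-fold higher (0.565 CPM), at 0.0982 CPM per kb, place 30 of the 38 genes.

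No laminin alpha chain gene was higher: of the 4 tested, all had log2 fold changes under 0, and 2 passed. Beside LAMA3, these included LAMA5, the alpha5 chain gene of laminin-511, with 4812, 5764 and 5935 normalized counts in si-Control and 4779, 4826 and 4654 in the libraries labelled si-CITED2. Here the groups overlapped, since the lowest si-Control library fell below the highest of the others. The log2 fold change was -0.21 ± 0.07 (SE, edgeR adjusted p = 0.035), and the call was lost in 5 of the 6 fits that left out a library (-0.30 to -0.16). LAMA1 had 1203, 1306 and 1455 against 1171, 1148 and 1126 normalized counts and did not pass (log2 fold change -0.20, 95% interval -0.35 to -0.06, edgeR adjusted p = 0.0545). LAMA2, the alpha chain of muscle laminin, was low, at 43.5 to 52.4 normalized counts in si-Control and 30.6 to 32.8 in the libraries labelled si-CITED2, and did not pass either (log2 fold change -0.67, adjusted p = 0.0502). LAMA4 had at most 3 counts in a library and was not tested. The make-up of alpha chain mRNA differed little, with LAMA5 at 58.2% ± 0.49 (SD) in si-Control and 60.1% ± 0.63 in the libraries labelled si-CITED2, and LAMA3 at 24.6% ± 0.62 and 22.3% ± 0.67.

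The collagen-binding integrins are alpha1, alpha2, alpha10 and alpha11, each of which pairs with beta1. ITGA2 (chr5:52989326-53094779, plus strand), the alpha2 gene, showed the largest difference of the integrins that passed, with 2110, 2297 and 2460 normalized counts in si-Control and 8182, 8520 and 7782 in the libraries labelled si-CITED2. The lowest of the latter was over 3 times the highest si-Control library. The log2 fold change was 1.84 ± 0.06 (SE, n = 3 per group), or 3.57-fold (edgeR adjusted p = 1.21e-12). Its upstream window is shown because no member with a window and a count in si-Control differed more; it held 4 GC boxes (capitals) and neither other motif.
ITGA2 window, chr5:52989102-52989351, plus strand: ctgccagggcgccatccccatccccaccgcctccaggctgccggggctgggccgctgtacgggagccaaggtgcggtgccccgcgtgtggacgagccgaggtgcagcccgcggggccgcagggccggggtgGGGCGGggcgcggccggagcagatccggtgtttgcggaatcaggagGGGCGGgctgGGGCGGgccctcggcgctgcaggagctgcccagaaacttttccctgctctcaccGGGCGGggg
ITGA1, the alpha1 gene, lies beside ITGA2, with PELO the only coding gene that starts between them. It was far less abundant, with 122, 124 and 146 normalized counts in si-Control and 248, 226 and 230 in the libraries labelled si-CITED2, again without overlap (log2 fold change 0.85 ± 0.12, SE, edgeR adjusted p = 1.07e-04). PELO shares 475 exonic bases with ITGA1 on the same strand, and its own log2 fold change was 0.08 (adjusted p = 0.599). ITGA10 had at most 21.9 and ITGA11 59.6 to 80.1 normalized counts over the 6 libraries, with overlapping groups, and neither passed.

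The RGD-binding alpha subunits recognise an arginine-glycine-aspartate motif in fibronectin and vitronectin. ITGAV (chr2:186590065-186680901, plus strand), the alphaV gene, had 2257, 2241 and 2420 normalized counts in si-Control and 5536, 6203 and 5733 in the libraries labelled si-CITED2. Every library of the second group lay above every si-Control library, by a log2 fold change of 1.34 ± 0.06 (SE, edgeR adjusted p = 3.20e-11). ITGA5, the alpha5 gene of the main fibronectin receptor, had 3421, 3264 and 3347 against 6403, 6151 and 6123 normalized counts. The spread within a group was small beside the gap, with a log2 fold change of 0.90 ± 0.05 (SE, edgeR adjusted p = 6.65e-10). ITGA2B, the platelet integrin alphaIIb gene, was at 92.0 to 179 normalized counts and did not pass (log2 fold change -0.30, 95% interval -0.68 to 0.07). ITGA8 had at most 9 counts in a library and was not tested.

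Of the 3 beta subunit genes tested whose products pair with alphaV but not with alpha5, 2 were higher. ITGB5 had 1258, 1357 and 1279 normalized counts in si-Control and 2676, 2646 and 2678 in the libraries labelled si-CITED2 (log2 fold change 1.04 ± 0.05, SE, edgeR adjusted p = 4.56e-10). ITGB3 (chr17:47253846-47311816, plus strand), the beta3 gene, was rarer, at 232, 250 and 239 against 750, 706 and 723 normalized counts. In both genes the groups were clearly apart, and the log2 fold change of ITGB3 was 1.59 ± 0.08 (SE, edgeR adjusted p = 3.85e-10). The per-kb ratio of ITGB3 to ITGB5 was 0.203 ± 0.0014 (SD) in si-Control and 0.298 ± 0.008 in the libraries labelled si-CITED2 (exact two-sided permutation p = 0.1, the smallest possible). The summed ITGB3, ITGB5, ITGB6 and ITGB8 level per ITGAV was 1.10 ± 0.07 and 0.965 ± 0.065 (exact permutation p = 0.1). ITGB8 was at 24.3 to 41.1 normalized counts and did not pass (log2 fold change 0.20, 95% interval -0.37 to 0.77). ITGB6 was too low to be tested: the si-Control libraries held 3, 1 and 0 counts, and those labelled si-CITED2 held 3, 8 and 11.

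ITGB1, whose product is the common beta subunit, was the most abundant member per kb in both groups, at 461 ± 16.3 and 583 ± 17.3 CPM per kb (SD, n = 3). Its normalized counts were 39407, 42118 and 41668 in si-Control and 50183, 52927 and 52781 in the libraries labelled si-CITED2. The groups did not overlap, and the log2 fold change was 0.34 ± 0.05 (SE, edgeR adjusted p = 5.77e-05). ITGB1 per summed level of its alpha partners was 1.72 ± 0.03 (SD) in si-Control and 1.70 ± 0.06 in the libraries labelled si-CITED2 (exact two-sided permutation p = 0.8), a log2 difference of -0.02.

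Of the laminin-binding integrin genes, the most abundant did not pass. ITGA3, whose alpha3 subunit with beta1 is a receptor for laminin-332, had 18721, 19467 and 20020 normalized counts in si-Control and 18595, 18119 and 18173 in the libraries labelled si-CITED2. All 3 of the latter lay below the si-Control libraries, but the log2 fold change of -0.08 (95% interval -0.18 to 0.01) did not pass (edgeR adjusted p = 0.238). ITGA6, the alpha6 gene, had 5006, 5376 and 5217 against 5759, 6048 and 5684 normalized counts, a small gap with no overlap (log2 fold change 0.17 ± 0.05, SE, edgeR adjusted p = 0.0275). That call was lost in 5 of 12 alternative settings, at adjusted p values up to 0.160. ITGB4, which pairs only with alpha6 and anchors hemidesmosomes, had 1692, 1938 and 1933 against 2646, 2215 and 2130 normalized counts. Replicate 1 of the libraries labelled si-CITED2 stood above the rest, and the log2 fold change was 0.33 ± 0.08 (SE, edgeR adjusted p = 6.09e-03). The per-kb ratio of ITGB4 to ITGA6 was 0.338 ± 0.016 (SD) and 0.380 ± 0.049 (exact permutation p = 0.2). ITGA7, a muscle laminin receptor gene, was at 80.9 to 82.9 normalized counts in si-Control and 47.4 to 74.5 in the libraries labelled si-CITED2 and did not pass (log2 fold change -0.41, edgeR adjusted p = 0.153).

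**Figure D2:**
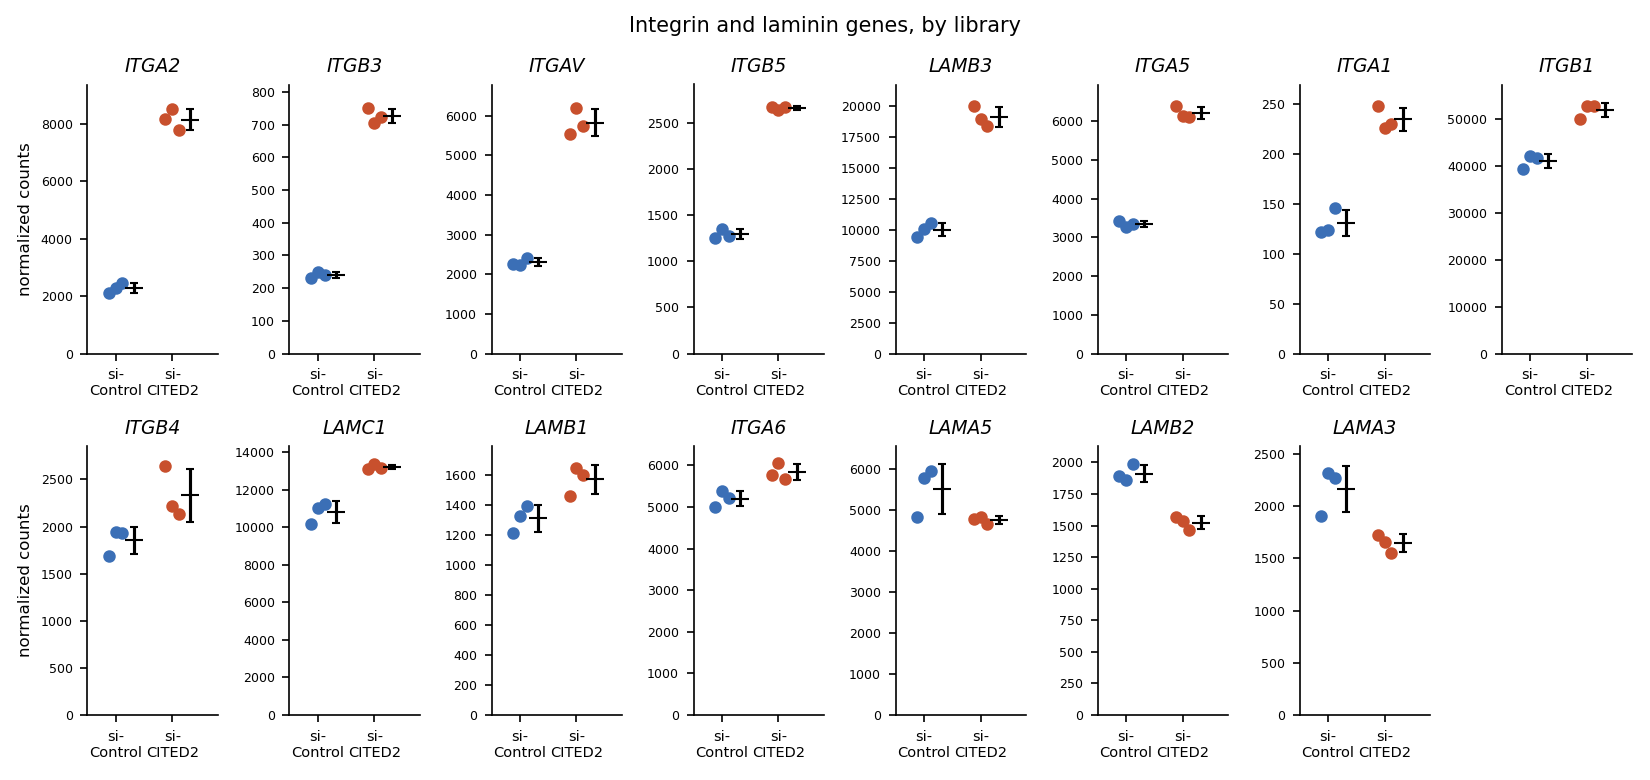
Normalized counts (y axis, from 0) of 15 genes that passed the test and reached a group mean of 50; points are the 3 libraries of each group and bars the mean ± SD. In ITGA2, ITGB3 and ITGAV the gap is many times the spread, whereas in LAMA5 the groups overlap.

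The integrins of leukocytes were near the floor or did not pass. ITGAD, ITGAL, ITGAM and ITGAX, the alpha partners of beta2, were not tested, with at most 20.8 normalized counts in any library, and ITGA4, the alpha4 gene, had at most 7.29. ITGA9, related to alpha4, was at 9.41 to 23.1 normalized counts with overlapping groups. ITGB2 was at 344 to 412 normalized counts in si-Control and 276 to 370 in the libraries labelled si-CITED2 (log2 fold change -0.25, 95% interval -0.49 to -0.01, edgeR adjusted p = 0.146). ITGAE, whose product with beta7 binds E-cadherin, was at 304 to 358 normalized counts over all libraries (log2 fold change -0.05), and ITGB7 at 21.3 to 39.5. No gene of these classes passed the test.

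The shares of ITGA3, ITGA2, ITGAV and ITGA5 in integrin alpha mRNA did not overlap between the groups. The same held for the shares of ITGA6, ITGAE, ITGA1, ITGA7 and ITGA2B. On the per-kb scale ITGA3 made up 61.6% ± 0.25 (SD, n = 3) in si-Control and 45.5% ± 0.80 in the libraries labelled si-CITED2. A share depends on the levels of all alpha genes, and the level of ITGA3 itself did not pass the test (log2 fold change -0.08). ITGA2 took 4.51% ± 0.21 and 12.6% ± 0.40, ITGAV 5.09% ± 0.14 and 10.1% ± 0.55, and ITGA5 11.7% ± 0.55 and 17.0% ± 0.38. ITGA3 stayed the first of the alpha genes in every library, but ITGA6, the second in si-Control at 39.3 ± 1.41 CPM per kb, lay below ITGA5 (59.5 ± 1.47) and level with ITGA2 (44.0 ± 1.99) in the libraries labelled si-CITED2, where it was at 44.1 ± 1.45. The ratio of ITGA2 to ITGA3 was 0.0732 ± 0.0032 and 0.277 ± 0.013 (exact permutation p = 0.1, the smallest possible). That separation was given in advance, since ITGA2 lay higher and ITGA3 lower in every library labelled si-CITED2, and adds no support. Beta chain mRNA was mostly ITGB1 in both groups, at 93.1% and 91.3% ± 0.49, with ITGB5 at 2.55% ± 0.06 and 4.06% ± 0.12.

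**Figure D3:**
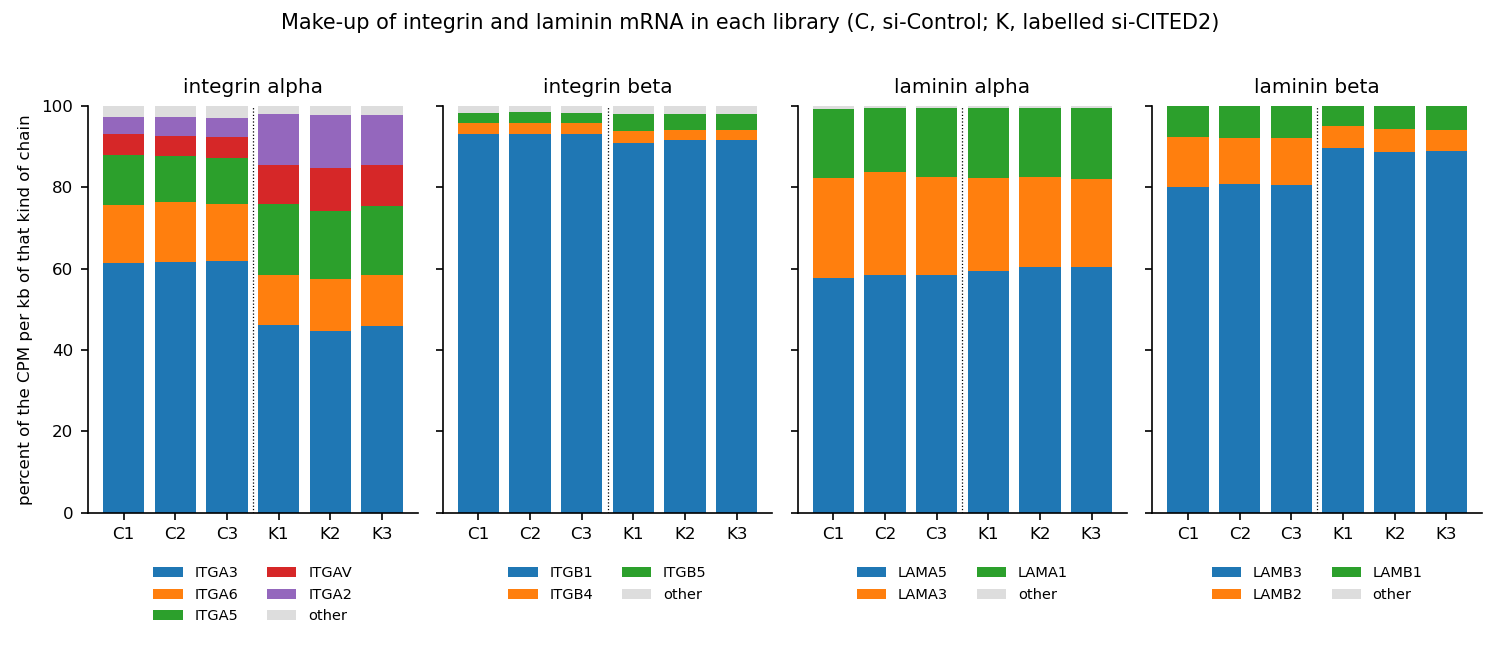
Percent of the CPM per kb (y axis) of integrin alpha, integrin beta, laminin alpha and laminin beta chains taken by their genes in every library (C1 to C3, si-Control, and K1 to K3, labelled si-CITED2). Genes with a small share in every library are pooled as other. The 3 libraries of a group look alike. ITGA3, whose own level did not pass the test, goes from 61.6% to 45.5% of integrin alpha mRNA. LAMB3 goes from 80.5% to 89.1% of laminin beta mRNA.

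The genes around these receptors and ligands were counted in 6 lists of 100 genes, of which 99 were in the files and 83 were tested. In all, 35 were higher, 7 were lower and 41 did not pass, against the same background of 9.36% and 8.09%, with a median log2 fold change of 0.16. Of 13 tested genes for integrin activation, 7 were higher and none was lower. They included FERMT1 and FERMT2, which encode kindlins that bind beta tails (log2 fold changes 1.19 ± 0.06 and 0.66 ± 0.05, SE, edgeR adjusted p = 5.14e-10 and 3.84e-08). Of 23 focal adhesion genes, 15 were higher and 1 lower. The largest differences among those with at least 100 normalized counts were in PTK2B, a kinase related to focal adhesion kinase (log2 fold change 1.01 ± 0.08), TNS4, a tensin gene (0.70 ± 0.09), and ACTN1, an actin crosslinker gene (0.64 ± 0.04). PARVB, a parvin gene, was the lower one (-0.22 ± 0.06).

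Among 9 genes of hemidesmosomes and tetraspanins, 2 were higher and 2 lower. CD82 and CD151, tetraspanins that associate with integrins, had log2 fold changes of 0.59 ± 0.13 and 0.38 ± 0.06 (SE), and COL17A1, a hemidesmosome collagen gene, -0.41 ± 0.10 (edgeR adjusted p = 8.21e-03). Of 16 basement membrane partners 4 were higher and 1 lower. COL4A1 and COL4A2, the chains of the commonest type IV collagen, went from means of 701 ± 21.0 and 1296 ± 67.7 (SD) to 2772 ± 102 and 4782 ± 113 normalized counts, log2 fold changes of 1.98 ± 0.06 and 1.88 ± 0.05 (SE, edgeR adjusted p = 2.71e-13 for each). The genes that link laminin to that collagen did not pass: NID1 had a log2 fold change of 0.11, HSPG2 (perlecan) 0.13 and AGRN (agrin) 0.03. TINAGL1, a basement membrane protein gene, stood at 0.71 ± 0.06.

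Of 8 laminin receptors that are not integrins, 2 were higher and 1 lower, namely SDC4, a syndecan gene (0.77 ± 0.05, SE), LGALS3, the galectin-3 gene (0.39 ± 0.07), and BCAM, a receptor for alpha5 laminins (-0.23 ± 0.07, edgeR adjusted p = 0.0273). DAG1, the dystroglycan gene, was at -0.01. Of 14 integrin ligands other than laminins, 5 were higher and 2 lower. CTGF and THBS1, matricellular proteins, had log2 fold changes of 1.48 ± 0.07 and 1.17 ± 0.05 (SE), and ICAM1, a beta2 integrin ligand, 1.03 ± 0.05. FN1, the fibronectin gene, was at means of 297 and 334 normalized counts and did not pass (log2 fold change 0.17), and VTN, the vitronectin gene, was near the floor. CDH1, the E-cadherin gene and ligand of alphaEbeta7, was lower by a log2 fold change of -0.52 ± 0.06 (SE, edgeR adjusted p = 1.67e-05).

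**Figure D4:**
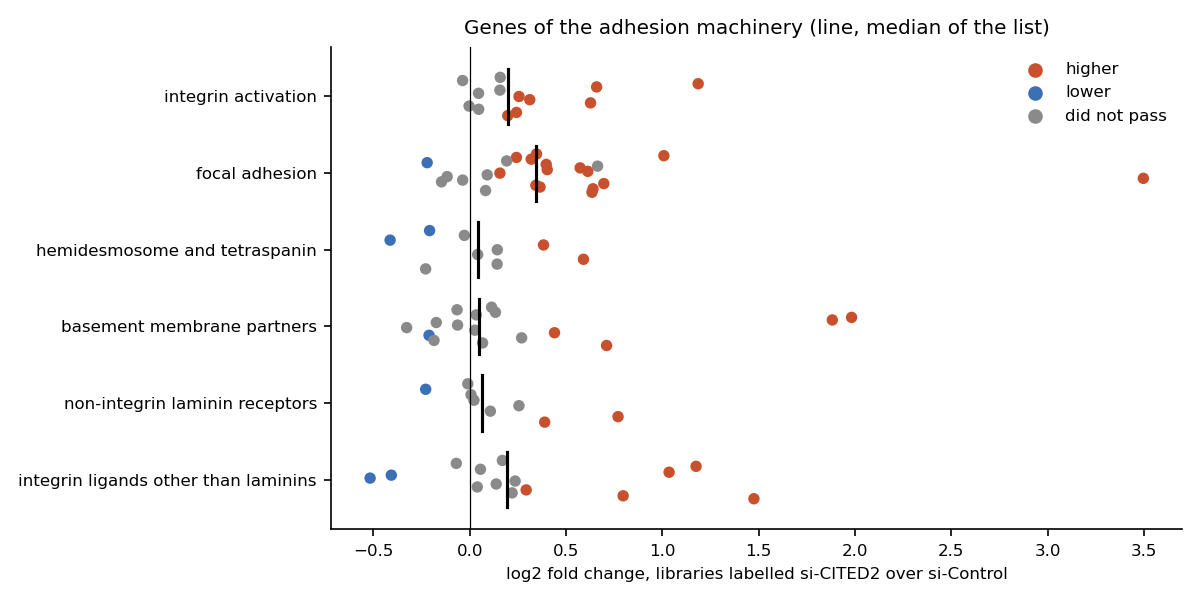
Log2 fold change (x axis, libraries labelled si-CITED2 over si-Control) of the tested genes of 6 adhesion lists; each point is a gene, coloured by the test, and the black line is the median of its list. Focal adhesion genes have the highest median, at 0.35, and hemidesmosome and tetraspanin genes the lowest, at 0.04; the point at 3.50 is NEDD9, with a mean of 6.23 normalized counts in si-Control.

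The exons of some members overlap those of other genes in GENCODE 29, and the strand setting of the counting is not given in the sources used here. Besides PELO with ITGA1, the overlapping genes with counts of their own all lie on the opposite strand. They are ITGB2-AS1 with ITGB2 (log2 fold change of ITGB2-AS1 -0.72, edgeR adjusted p = 0.0765), ZNF740 with ITGB7, METTL7B with ITGA7, LAMA5-AS1 with LAMA5 and ITGA9-AS1 with ITGA9. Reads of these pairs may not have been told apart. Other members overlap genes without counts here. The longest such overlap is that of ITGB3 with AC068234.1, on the same strand over 2266 bases. The study describes the RNA-seq as repeated independently, but the labels tie no library to a culture, so the p-values measure the spread between these libraries.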

How the data were processed

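RNA-seq was made from 6 libraries of PC3 cells, 3 per group, and the sample labels gave each group and replicate number. For each library the authors deposited 1 file of raw, unnormalized read counts by gene symbol. Per the labels, libraries were made from Trizol-extracted total RNA with a SMARTer mRNA-seq kit, and the submitters' processing notes name TopHat, edgeR and hg19. The counting program, annotation and strand setting are not given in the sources used here.

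A repeated symbol was represented by its most counted row, and 0.0821% of the counts lay in the other rows. The comparison used the quasi-likelihood test of edgeR 4.0.16 (R 4.3.3) after filterByExpr and TMM scaling, with no block and with Benjamini-Hochberg adjustment over all 16314 genes tested (threshold 0.05). The test was also run on simulated counts in which 200 genes were changed. Those counts had the same variability for every gene, so the run does not measure false calls in the real libraries. Normalized counts were counts over TMM-adjusted library size, times the mean such size. SE is the log2 fold change over the square root of F.

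Members and lists were chosen with earlier results of these data known. Values per library were given for members that passed and reached a group mean of 50 normalized counts, and up to 3 passing genes with at least 100 were named per list; others were added after their values were seen. Alternatives were DESeq2 1.42.0, library size scaling, other filters, summed rows, a replicate block and leaving out each library. Same-numbered libraries of the groups did not deviate together (r from -0.038 to 0.034). These values cannot show whether libraries of the same number were handled together. Sequences are from RefSeq (GRCh38.p14), and gene positions and transcript lengths from GENCODE 29 (GRCh38), not the files' build. Results for some genes are not reported here, although counts over members and lists include them.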

Additional observations from a re-analysis of the deposited data

How the results depend on the processing

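Over 12 alternative settings, 14 of the 17 members that passed the test did so under every setting run, and 3 (ITGA6, LAMA5 and LAMB1) were lost under at least 1. LAMB4 was fitted under 10 of the settings. With library size in place of TMM, 5 members were lower, since LAMA1 (-0.22, adjusted p = 0.0401) and LAMA2 (-0.68, adjusted p = 0.044) then passed, and the log2 fold change of CITED2 was 0.221, with an adjusted p = 0.0518 that missed the threshold. Among fits that each left out 1 library, CITED2 ranged from 0.173 to 0.291 and lost its call in 4, and the count of lower genes in the adhesion lists ranged from 3 to 7; without si-Control replicate 2 it was 3, and without si-CITED2 replicate 2 or 3 it was 4 in each. The cause was not tested beyond fewer libraries being fitted. Of members that did not pass, 4 changed sign in such fits: ITGA11 ranged from -0.0354 to 0.127, ITGA9 from -0.487 to 0.188, ITGAE from -0.0944 to 0.0034 and ITGB7 from -0.365 to 0.0538. ITGB2 passed without si-CITED2 replicate 2 (-0.38, adjusted p = 0.0438). With the replicate number as a block, 14 members were higher and 3 lower, and 1405 and 1154 of all genes were higher and lower, against 1527 and 1319 without the block. Genes with few counts, such as ITGB6 and LAMA4, could not be tested at this depth.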
